A study of Mus musculus with 6 samples.

Results

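The family of miR-148a, miR-148b and miR-152 is a group of microRNAs, short RNAs that lower the output of messenger RNAs, whose members carry the same seed, the stretch near the 5′ end that pairs with targets. The 2 members described here, mmu-miR-148a and mmu-miR-152 (miR-148a and miR-152 below), were taken by name, without star strands, from an array of 709 mouse miRNA assays. Both are among the 95 assays that held a value in all 6 samples. Their relative miR-148b was measured as well, with values in all 6 samples, and is given beside them. It completes the family on this array, since 3 of the 709 assays (0.423%) carry the seed and all 3 were measured. The star strand miR-148a* was Null, meaning without a value, in every sample.

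The samples were osteoclasts, myeloid cells that resorb bone, sorted with magnetic beads from mouse bone marrow as OSCAR+CTR+ cells. The labels assign 3 samples to mice with osteoclast miRNAs knocked down (OCmiR-KD, here KD) and 3 to control mice in which they were intact (OCmiR-Intact, here Intact). How the knockdown was made, its promoter or Cre, and the strain and age of the mice are not known from the labels. The design text says that RNA from 3 mice per group was pooled, so it is unclear whether the 3 samples of a group are separate mice or repeats of 1 pool, and each p-value below covers only sample-to-sample spread that may be technical.

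A miRNA seed pairs with sites that are mostly in the 3′ part of messenger RNAs, so miRNAs with a shared seed have overlapping targets. miR-148a is known to promote osteoclast formation. In human cells, miR-148a, miR-148b and miR-152 are known to repress DNMT1, the enzyme that keeps up DNA methylation.

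The mature sequences show what the 3 assays have in common and where they differ. The seed, bases 2 to 8, is in capitals. Each sequence in the array's table was the same as that of the 3p arm in RefSeq (GRCm38.p6).
miR-148a: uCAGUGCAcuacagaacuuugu
miR-148b: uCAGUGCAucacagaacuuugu
miR-152: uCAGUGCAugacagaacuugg

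Counted from the 5′ end and with the base of miR-148a first, miR-148b differs from miR-148a by C9U and U10C. miR-152 differs from miR-148a by C9U, U10G and U20G and is 21 bases long, while the other two are 22 bases long. Outside the family, the measured assay nearest to either member is 9 edits or more away, so among the measured assays the family's own members are the close relatives. Whether the assays of miR-148a and miR-148b, 2 substitutions apart, read each other's RNA was not tested.

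The genes lie on different chromosomes. Mature miR-148a is at chr6:51269829-51269850 on the minus strand, inside the span of the gene Gm38821. Mature miR-152 is at chr11:96850439-96850459 on the plus strand, inside the span of Copz2, which encodes a zeta subunit of the COPI vesicle coat. miR-148b is at chr15:103285185-103285206 on the plus strand, inside the span of Copz1, which encodes the other zeta subunit. The hairpins of both members are printed to show the arm that was measured, in capitals, and, for miR-148a, the opposite arm, whose assay was Null (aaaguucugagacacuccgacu).
Mir148a: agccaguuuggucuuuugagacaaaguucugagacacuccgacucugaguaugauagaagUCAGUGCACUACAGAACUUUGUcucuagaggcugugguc
Mir152: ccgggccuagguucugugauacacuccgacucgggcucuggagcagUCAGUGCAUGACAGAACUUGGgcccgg

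The level of a miRNA is minus its delta Ct, a log2 value set against U6, a small nuclear RNA that served as the authors' reference. Ct is the cycle at which fluorescence crosses a threshold, and delta Ct is the Ct of a miRNA minus that of U6. Before any difference is read, a property of the deposited values has to be given. Expressed linearly against the U6 well of plate 1, the 3 KD values of miR-148a average 0.99986, those of miR-152 average 1.00011 and those of miR-148b average 0.99972. Such a KD mean of 1, to within 0.001, holds for 88 of the 95 measured assays, and for 0 of the 95 in Intact samples. The family's KD means thus carry no information of their own, and "fell" below is shorthand for deposited Intact values above that fixed mean. Which processing step fixed that mean is unknown from the deposited values and labels, so whether a fall is a measured loss cannot be told.

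miR-148a had levels of -0.193, 0.811 and -1.433 in the KD samples, against 9.482, 8.571 and 7.269 in the Intact samples. The KD samples lay around U6 and the Intact samples far above it, with no overlap. The Ct was 31.31, 29.752 and 30.779 cycles in KD samples, against 19.804, 21.001 and 23.074 cycles in Intact samples. Intact sample 3 was the latest of its group in Ct and the lowest in level.

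miR-152 had levels of -0.854, 1.22 and -3.088 in the KD samples, against 2.269, 2.222 and 2.222 in the Intact samples. Its groups did not overlap either, but KD sample 2 was above U6, and the KD samples spread over 4.308 log2 units while the Intact samples stayed within 0.047. The delta Ct is identical in Intact samples 2 and 3 although their Ct differs, at 27.35 and 28.121 cycles. Equal levels within the Intact group occur in 2 of the 95 assays. The Ct of miR-152 was 31.971, 29.343 and 32.434 cycles in KD samples, against 27.017, 27.35 and 28.121 cycles in Intact samples.

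miR-148b, which lies between the members, had levels of 0.171, 0.341 and -0.721 in KD samples, against 5.846, 5.085 and 5.115 in Intact samples, again with no overlap. All 3 miRNAs thus kept the same order of KD samples, with sample 2 highest and sample 3 lowest. Of the 95 measured assays, 17 (17.9%) had that order.

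**Figure D1:**
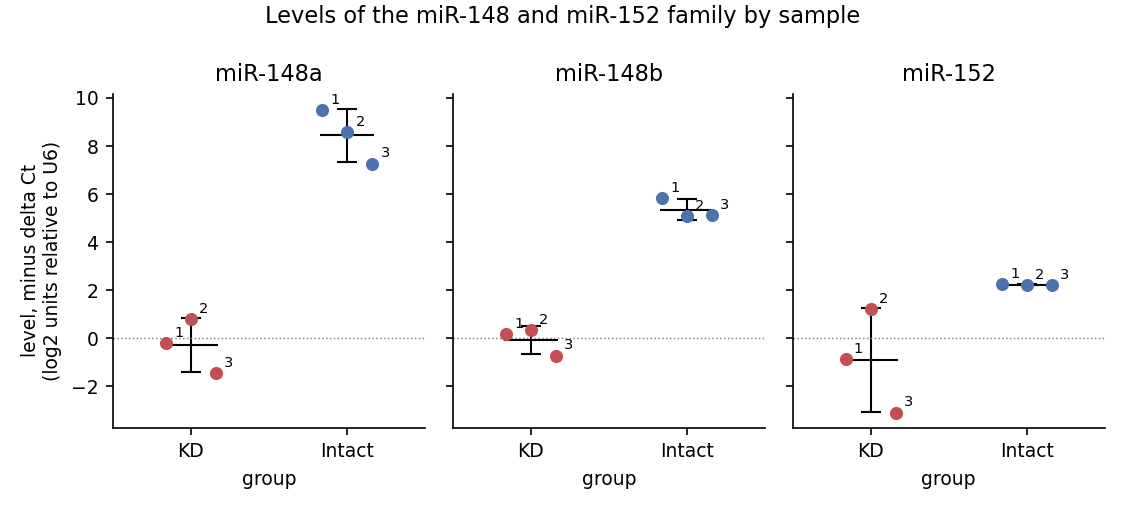
Level of miR-148a, miR-148b and miR-152 in each sample, in log2 units relative to U6 (dotted line at 0), with KD samples in red and Intact samples in blue. Numbers are sample numbers, the long bar is the mean and the whiskers are 1 SD (n = 3); KD values lie around U6 for every miRNA, while Intact means step down through 8.44, 5.35 and 2.24.

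The reference moved much less than the miRNAs. U6 of plate 1, which holds all 3 assays, crossed at 30.3 ± 0.906 cycles in KD samples and 29.7 ± 0.547 cycles in Intact samples (SD, n = 3 each), a delay of 0.608 cycles. The delay in Ct was 9.32 cycles for miR-148a, 6.03 cycles for miR-148b and 3.75 cycles for miR-152. Deposited Ct is exactly delta Ct plus the Ct of U6, so these delays carry the same fixed KD means and are no separate evidence.

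**Figure D2:**
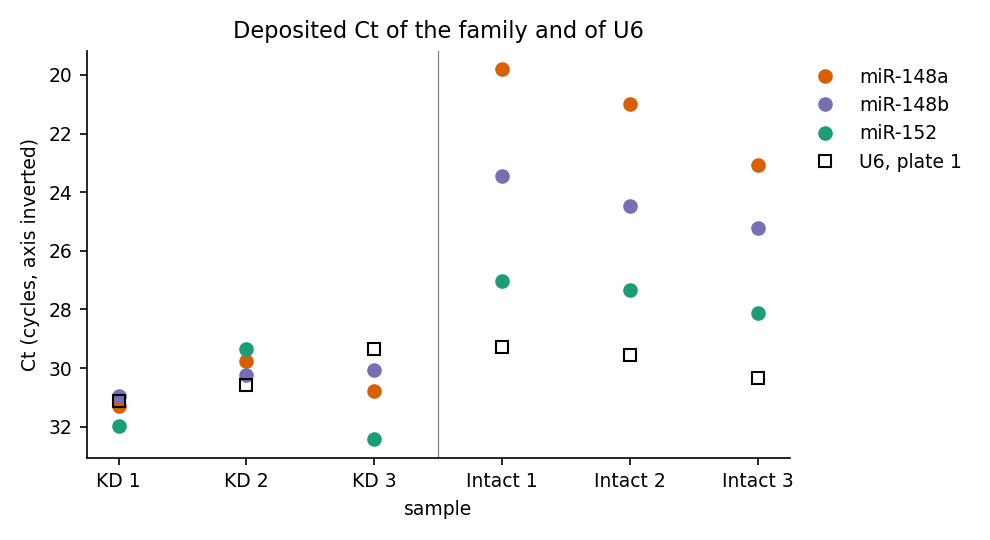
Deposited Ct in cycles (inverted axis, so that more template is higher) of the 3 miRNAs (circles) and of U6 on plate 1 (squares) in each of the 3 KD and 3 Intact samples. In KD samples the miRNAs lie between 29.343 and 32.434 cycles, in the region of U6, and in Intact samples they stand in 1 order in every sample, with miR-148a earliest and miR-152 latest.

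Both members fell in KD osteoclasts relative to U6. miR-148a averaged -0.27 ± 1.12 in KD and 8.44 ± 1.11 in Intact samples (SD, n = 3 each), a difference of -8.71 log2 units (SE 0.80, 95% interval -10.57 to -6.86, limma adjusted p = 3.93e-05). miR-152 averaged -0.91 ± 2.15 in KD and 2.24 ± 0.027 in Intact samples (SD, n = 3 each), a difference of -3.15 log2 units (SE 1.01, 95% interval -5.49 to -0.80, limma adjusted p = 0.0191). The interval of miR-152 is wider than that of miR-148a and ends closer to 0. Fewer cells of a type and less RNA per cell cannot be told apart in such samples.

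For comparison, 80 of the 95 assays (84.2%) fell by the same limma test and 0 rose, also 0 at an unadjusted p under 0.05. In 78 of the 95 (82.1%) every KD sample lay below every Intact sample. That both members fell and that their groups do not overlap is therefore near the background of the array and no result about the family. In the authors' deposited table, Intact over KD was 419.444 for miR-148a, 42.764 for miR-148b and 8.846 for miR-152. An exact two-sided permutation test of either member alone gave p = 0.1, the smallest that 3 against 3 samples allow.

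The size of the members' differences was set by different values. For miR-148a, Intact over KD was 417-fold as a ratio of linear group means, close to the 419-fold from mean log2 levels. For miR-152 the ratio of linear means was 4.72-fold and that from mean log2 levels 8.85-fold, since a mean of log2 values lies further below the log2 of the mean the more the values spread. Without KD sample 3 the difference of miR-152 was -2.05, and without KD sample 2 it was -4.21. Its call was lost when Intact sample 3 was left out (difference -3.15, SE 1.29, limma adjusted p = 0.0694). Leaving out Intact sample 2, which has the same level of 2.222, gave the same difference and kept the call (SE 1.20, limma adjusted p = 0.042). The lost call thus does not come from the value of miR-152 in Intact sample 3, since limma's SE also draws on the other assays. For miR-148a the difference was -9.30 without Intact sample 3, and it passed with any sample left out.

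miR-148a ranked 4 of 95 in mean Intact level and 4 in size of fall. miR-148b ranked 28 and 31, and miR-152 ranked 78 and 71. A difference that follows the Intact level this closely is built in where the linear KD mean is 1, since minus the Intact level is then about what remains. Primer efficiency enters each level too, so these ranks order assay readings and not molecules.

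**Figure D3:**
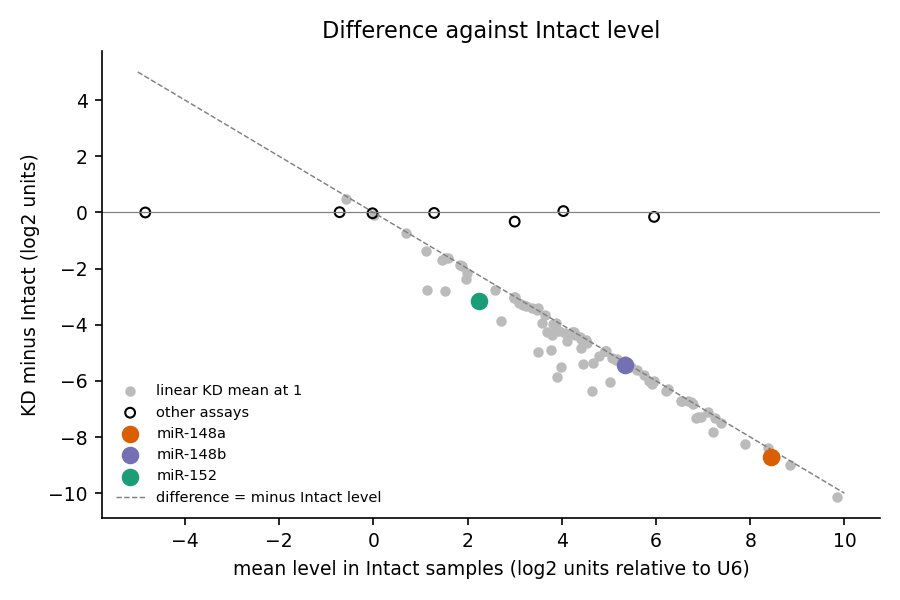
KD minus Intact in log2 units against the mean Intact level in log2 units relative to U6, for the 95 measured assays. Assays with a linear KD mean of 1 (grey) lie near or below the dashed line where the difference equals minus the Intact level, with miR-148a (8.44, -8.71), miR-148b (5.35, -5.42) and miR-152 (2.24, -3.15) among them; the 7 other assays (open circles) lie near 0.

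In the gap between the members within a sample the Ct of U6 cancels, since both were on plate 1. The KD values that enter the gap still have linear means fixed against that U6. The level of miR-148a minus that of miR-152 was 0.661, -0.409 and 1.655 log2 units in KD samples, against 7.213, 6.349 and 5.047 in Intact samples. The gap averaged 0.64 ± 1.03 in KD and 6.20 ± 1.09 in Intact samples (SD, n = 3 each), so it was 5.57 log2 units narrower in KD samples (difference -5.57, exact two-sided permutation test, p = 0.1, the smallest possible). In KD samples the order of the pair turned in sample 2, where miR-152 stood above miR-148a. Some such turn is built in, since the linear KD means of the pair are nearly equal, at 0.99986 and 1.00011.

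The remaining pairs, which involve miR-148b, gave the same picture with smaller sizes. The gap of miR-148a over miR-148b averaged -0.20 ± 0.61 in KD and 3.09 ± 0.82 in Intact samples (SD, n = 3 each), a difference of -3.29. The gap of miR-148b over miR-152 averaged 0.84 ± 1.63 in KD and 3.11 ± 0.40 in Intact samples (SD, n = 3 each), a difference of -2.27. Either exact permutation test gave p = 0.1. For the last pair KD sample 3, at 2.367, came close to Intact sample 2, at 2.863. With every linear KD mean at 1, the KD gaps hold little besides the spread of the KD samples, and the differences restate the Intact gaps.

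The members also differed in the spread between replicates, given here as a description. In KD samples the SD of miR-152 ranked 13 of 95, and its highest sample was 19.8-fold above its lowest. In Intact samples its SD ranked 93 of 95, with 1.03-fold between highest and lowest. The median assay had an SD of 0.80 in KD and 0.48 in Intact samples. miR-148a was wide in both groups, at rank 33 in KD and rank 19 in Intact samples, with 4.74-fold between highest and lowest KD sample and 4.64-fold between highest and lowest Intact sample. miR-148b ranked 63 in KD and 57 in Intact samples.

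**Figure D4:**
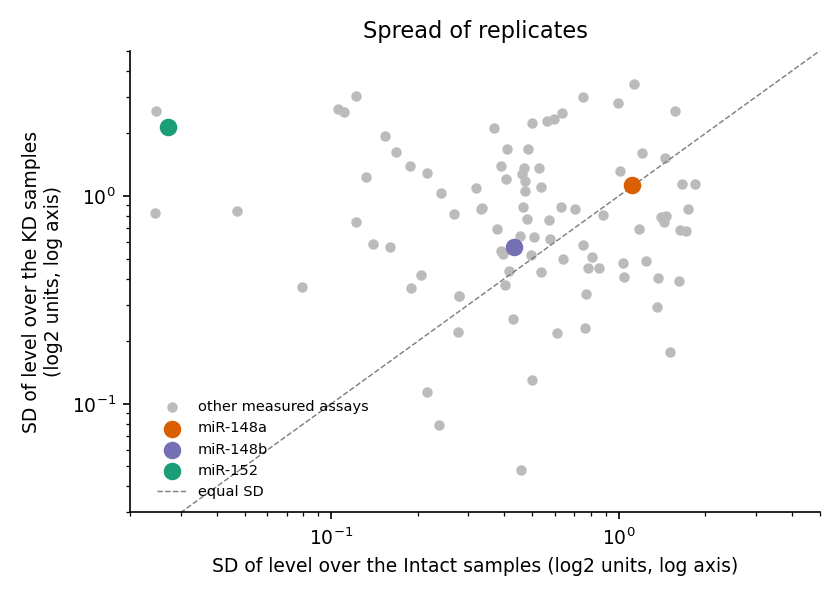
SD of the level over the 3 KD samples against that over the 3 Intact samples, in log2 units on log axes, for the 95 measured assays, with a dashed line of equal SD. miR-152 lies at the upper left (2.15 in KD, 0.027 in Intact), miR-148a near the line (1.12 in KD, 1.11 in Intact) and miR-148b close to it (0.57 in KD, 0.43 in Intact).

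Relative to the other miRNAs the members' differences took opposite signs. Subtracting the mean Ct of the 95 measured miRNAs from each sample, in place of U6, moves every plate 1 difference by 4.48 log2 units. On that scale miR-148a stood at -4.23 (SE 0.80, limma adjusted p = 0.005), below the mean change, while miR-152 stood at 1.34 (SE 1.03, limma adjusted p = 0.349) and did not pass. miR-148b stood at -0.94 (SE 0.53, limma adjusted p = 0.214). With the family's linear KD means fixed at 1, this order restates that of the Intact levels and is no separate result. On this scale 19 of 95 assays were lower in KD samples (20%) and 19 were higher (20%). After quantile normalization miR-148a was at -3.26 (limma adjusted p = 0.154), miR-148b at -0.47 (0.757) and miR-152 at 0.86 (0.866), with 5 of 95 assays lower (5.26%) and 8 higher (8.42%) in KD samples. The fall of miR-152 passed relative to U6 and on raw Ct, and not under either of these scalings.

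Among the 10 seed families with at least 2 measured assays, the 3 differences of the family ran from -8.71 to -3.15, a range of 5.57 log2 units. This was the second widest, after the 9 measured members of let-7 and miR-98, whose range was 5.78. The group of miR-99a, miR-99b and miR-100 followed with 5.04, and the narrowest pair, miR-192 and miR-215, had 0.82. In mean Intact level the family's range of 6.20 exceeded the 5.74 of the let-7 group. In mean KD level it was 0.84. Each linear KD mean of the family is 1, so the 0.84 reflects only KD spread. The family's range of differences thus largely restates its range of Intact levels. No test was made between families, which differ in their number of members.

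**Figure D5:**
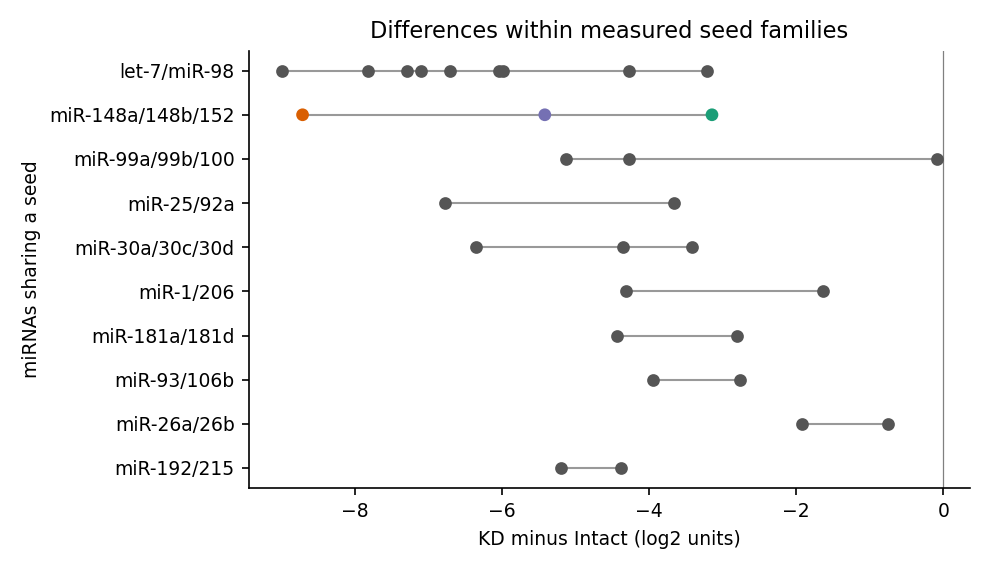
KD minus Intact in log2 units for each measured miRNA of the 10 seed families with at least 2 measured assays, with a line from lowest to highest. The family of miR-148a (orange), miR-148b (violet) and miR-152 (green) spans -8.71 to -3.15, nearly as wide as the let-7 group at the top.

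Profiles most like each member were found by the root mean square difference over the 6 samples, after each profile had been centred on its own mean. The size of the group difference dominates this measure. For miR-148a these were let-7i (0.877 log2 units), miR-214 (0.943) and miR-151-3p (0.985), against a median of 2.50 over all other assays. miR-148b came 23rd in that order (1.75) and miR-152 came 65th (2.92), further than the median assay. For miR-152 the nearest were miR-375 (0.797), known from pancreatic islets, miR-145 (0.931), known from smooth muscle, and miR-328 (1.01), against a median of 1.93. These 6 fell relative to U6 too (largest limma adjusted p = 0.00106). let-7i, miR-214 and miR-151-3p differed by -8.99, -7.33 and -8.25, while miR-375, miR-145 and miR-328 differed by -4.24, -3.97 and -4.32. When centred on the measured miRNAs, the last 3 reversed to 0.24, 0.51 and 0.17 without a call, as miR-152 did. That shift of 4.48 log2 units reverses any smaller fall on plate 1. Neighbours chosen on these same levels share a member's difference by selection, so neither likeness is a separate result.

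Of 10 miRNAs listed as promoting osteoclast formation, 6 were measured, miR-148a among them, and all 6 fell, where 84.2% of all assays did. Their median difference was -5.93, against -4.54 over all 95 assays. miR-31 and the 3 miR-29 miRNAs were Null. miR-214 had levels of 0.539, -0.163 and -0.614 in KD samples, against 8.082, 7.059 and 6.625 in Intact samples, a difference of -7.33 (SE 0.59, limma adjusted p = 3.23e-05). miR-183 differed by -6.00 (SE 0.56) and the myeloid miR-223 by -5.50 (SE 0.53), each with a limma adjusted p of 3.93e-05. miR-142-5p, also of blood cells, differed by -5.86 (SE 1.37, limma adjusted p = 0.00421), and miR-21, which represses Pdcd4, by -5.50 (SE 1.34, limma adjusted p = 0.00517). The KD values of miR-21, at -2.732, -3.245 and 1.456, had their highest sample in KD 3, where both family members had their lowest. Centred on the measured miRNAs, the list's median was -1.45, and 2 of the 6, miR-148a and miR-214, passed below the mean change, as 20% of all assays did. After quantile normalization miR-214 was at -1.98 and did not pass (limma adjusted p = 0.154).

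Of 11 miRNAs listed as repressing DNA methyltransferases, mostly from work in human cells, 7 were measured and all 7 fell, where 84.2% of all assays did, with a median of -5.42 against -4.54 over all 95 assays. The miR-29 miRNAs and miR-101a were Null. Besides the 3 family members these were miR-342-3p (-7.52, SE 0.58), miR-143 (-6.83, SE 0.64), miR-126-3p (-4.59, SE 0.72) and miR-185 (-4.27, SE 0.49), the largest limma adjusted p of the 4 being 0.000543. The family thus holds the largest difference of the list, in miR-148a, and the smallest, in miR-152. Centred, the list's median was -0.94. On that scale 3 of the 7, miR-148a, miR-342-3p and miR-143, passed below the mean change, as 20% of all assays did, and miR-185 reversed to 0.21. After quantile normalization neither miR-342-3p (limma adjusted p = 0.0743) nor miR-143 (0.158) passed.

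miRNAs known from the myeloid lineage and from other cells were both measured in these sorted osteoclasts. Of 5 myeloid miRNAs 3 were measured, with miR-142-3p and miR-155 Null, and their linear levels relative to U6 summed to 0.960 to 6.54 in KD samples, against 49.4 to 115 in Intact samples. Of 6 epithelial miRNAs 4 were measured, with sums of 3.14 to 5.26 in KD samples, against 1135 to 1776 in Intact samples. All 4 stromal miRNAs were measured, with sums of 3.55 to 4.61 in KD samples, against 223 to 430 in Intact samples. The levels of miR-199a-3p, a stromal miRNA in these sums, equal those of miR-24 in every sample, and the reason is unknown. The 3 erythroid miRNAs summed to 1.44 to 5.02 in KD samples, against 14.9 to 17.2 in Intact samples. Of these, 2 fell, and miR-486 stood at 0.49 and did not pass. Of 3 lymphoid miRNAs, with miR-181b Null, 2 summed to 1.37 to 2.74 in KD samples, against 23.7 to 26.9 in Intact samples. Every measured miRNA of these lists has a linear KD mean of 1, so a list's KD sums average about its number of measured miRNAs. Where Intact values lie above U6, a direction shared with miR-148a and miR-152 follows from the fixed KD mean. Centred on the measured miRNAs, the list medians were -3.24 for epithelial, -1.41 for stromal, -1.02 for myeloid, 0.38 for lymphoid and 2.34 for erythroid miRNAs, the last with 2 of 3 higher in KD samples. Their part in the family's values was not tested.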

How the data were processed

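Sorted osteoclast RNA of 3 KD and 3 Intact samples was measured, per the labels' protocols, with QuantiMir reverse transcription and SYBR Green PCR of 40 cycles on a ViiA7. Per the file headers, the authors deposited Ct, then log2-scale delta Ct against U6 (Null where no value), then folds of Intact over KD. The sources used here do not give the Ct threshold, PCR efficiency or Null rule. Deposited Ct minus delta Ct was checked to be the Ct of 1 well per sample and plate. In plate row E, 48 well IDs that had become numbers were restored. A PCR array has no read depth, and the number of samples limits the precision.

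KD was compared with Intact on minus delta Ct with limma 3.58.1 in R 4.3.3 (no trend, no covariate, two-sided), over assays with Ct under 35 in at least 3 samples, which all 95 met, with Benjamini-Hochberg adjustment over the 95 and a threshold of 0.05. The step was run on simulated, independent normal values. These had no fixed KD mean, so that run does not cover this property of the deposited values. Gaps between miRNAs used exact permutation tests. Named miRNAs are the family, U6, the 3 nearest profiles per member and at most 5 measured non-members by smallest p of the osteoclast and DNA methyltransferase lists. Other families named as extremes of a range, and miR-24, were chosen after their values were seen. Members and lists were chosen with earlier results of these data known. Sequences are from the deposited table and RefSeq.

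Alternatives were raw Ct, centring, U6 of plate 1, quantile normalization, Ct limits, leaving out samples and a replicate block. The sample titles link same-numbered samples only by that number.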

Additional observations from a re-analysis of the deposited data

How the results depend on the processing

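The difference of miR-148a kept its direction under every alternative run, and that of miR-152 kept it under all but centring on the measured miRNAs and quantile normalization. Quantile normalization gave -3.26 for miR-148a and 0.86 for miR-152 with no call, 13 calls in place of 80 (5 lower and 8 higher, 6 of them among the 80), and a difference of -4.12 between the members' differences. Centring gave 1.34 for miR-152 and 38 calls (19 lower and 19 higher, 24 of them among the 80). These settings subtract most of the common change by construction. Tested alone by exact permutation, -8.71 for miR-148a and -3.15 for miR-152 had p = 0.1. With 1 sample left out, differences ran from -9.30 to -8.13 for miR-148a, from -4.21 to -2.05 for miR-152 and from -6.15 to -5.05 between the members' differences, and calls from 75 to 81. The lost call of miR-152 is given above. Raw Ct moved every plate 1 difference by the same -0.608 log2 units, kept the fixed KD means and changed no member's call. The Ct limit of 32 left 94 assays and the members' differences unchanged, so it hardly tests them. U6 of plate 1 and no Ct limit leave the members' values as they are, since both are on plate 1 and all 95 assays met the limit, and so test nothing for them. Among the other named miRNAs, miR-145 (0.51 centred, 0.63 quantile normalized), miR-185 (0.21 and 0.14), miR-328 (0.17 and 0.25) and miR-375 (0.24 and 0.31) reversed without a call, and 16 further values, all centred or quantile normalized, kept their direction and lost the call.

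With the replicate block, the limma adjusted p was 1.82e-05 for miR-148a and 0.00779 for miR-152, and no member's call changed. The correlations of deviations of same-numbered samples were 0.0250, 0.101 and 0.0809 over 95 assays. Those of differently numbered samples ran from -0.0851 to 0.0270. All were small, so the numbers were not taken to pair samples, but whether same-numbered samples shared a step cannot be told. The exact sign-flip test over the numbered pairs of the gap of -5.57 gave p = 0.25, the smallest that 3 pairs allow. The linear ratio, added after seeing the data, gave -8.70 for miR-148a and -2.24 for miR-152 on the log2 scale.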
